A study of Caenorhabditis elegans with 2 samples.

Results

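The genes described here encode the small secreted signals of Caenorhabditis elegans: FMRFamide-like peptides (flp genes), other neuropeptide-like proteins (nlp genes) and insulin-like peptides (ins genes). They were chosen by name alone, as every protein-coding gene of the Ensembl annotation whose name starts with flp-, nlp- or ins-. This gave 140 members among 19973 protein-coding genes, made up of 31 flp, 71 nlp and 38 ins genes. The data are peak lists from chromatin immunoprecipitation with sequencing (ChIP-seq), which records where a tagged protein sat on DNA. The protein was NHR-77, a nuclear hormone receptor, fused to eGFP. The material was whole L1 larvae, the first larval stage, of strain OP353 with the genotype unc-119(tm4063) III; wgIs353 and both sexes mixed. The 2 biological replicates form 1 group, with nothing else to set it against. The larvae of both replicates therefore carried the unc-119 mutation and the insertion for nhr-77, and no untagged strain or other stage was analysed here.

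A neuropeptide gene encodes a precursor that is cut into short peptides, packed into dense-core vesicles, released, and read mostly by G protein-coupled receptors on other cells. Insulin-like peptides are secreted too and act on the insulin receptor DAF-2, whose kinase cascade keeps the transcription factor DAF-16 out of the nucleus. Many of these genes are known to be used in few cells, mostly neurons, and some in the intestine or the epidermis. Whole larvae mix all cell types, so occupancy in fewer cells and weaker occupancy per cell cannot be told apart. Peak lists cannot show whether the labelled stage or the tagged protein is as described. The nhr-77 gene itself (WBGene00003667) had no summit of the reproducible set or the pooled list in its promoter window, and its nearest reproducible summit lay 138765 bp away.

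Peaks were read in 4 lists on the ce11 genome. A reproducible set of 2285 peaks was chosen by the authors with the irreproducible discovery rate, and 3 longer lists include background. These held 13500 peaks for the replicates pooled, 21272 for replicate 1 and 24201 for replicate 2. The summit is the deposited high point of a peak. A gene had a promoter summit when one fell in its window, which runs from 1000 bp upstream to 250 bp downstream of the annotated 5' end. The signal, a value given by the authors, serves to rank the peaks of 1 list. Depth is unknown because no read totals are given, and intervals on shares are exact 95% intervals for counting error only.

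Peptide genes seldom carried a reproducible NHR-77 summit. The 2 that did were ins-39 and nlp-4, 1.43% of the members (interval 0.173 to 5.07%), against 8.60% of all protein-coding genes. By family these were 0 of 31 flp genes (upper bound 11.2%), 1 of 71 nlp genes (1.41%, 0.0357 to 7.599%) and 1 of 38 ins genes (2.63%, 0.0666 to 13.8%). The interval for all members lay below the share of all genes. The intervals of the 3 families overlapped each other, and those of the flp and ins families included the share of all genes. No test over genes was made, since the members were chosen with these results known. Where an interval is set against the share of all genes, here and below, this is a description and not a verdict. The intervals treat genes as independent, which genes that share a peak are not.

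Each replicate gave the same count when its 2285 strongest peaks were read alone (mean 2 ± 0 members, SD, n = 2). Replicate 1 had ins-39 and nlp-4, against 8.57% of all genes. Replicate 2 had ins-39 and nlp-59, against 8.19% of all genes. The strongest peaks of both replicates met at 1 member, ins-39 (0.714%), against 6.55% of all genes.

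**Figure D1:**
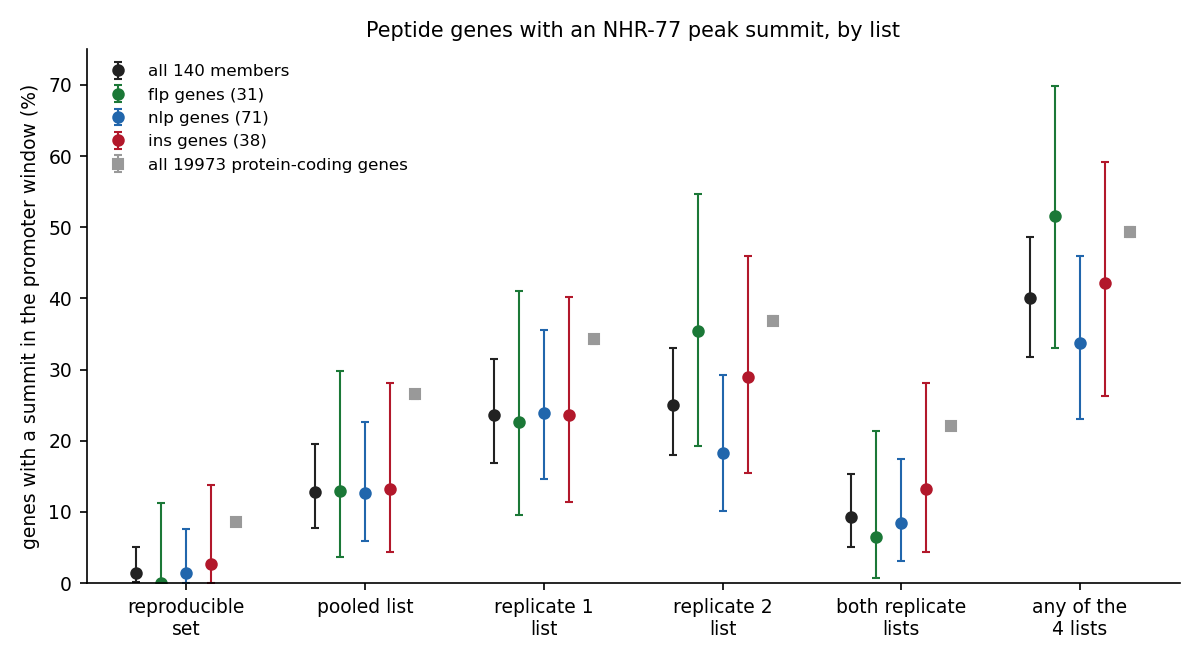
Share of genes (%, vertical axis) with a summit in the promoter window in each peak list, for all 140 members, the flp, nlp and ins families and all 19973 protein-coding genes (bars are exact 95% intervals; those of all genes are smaller than the symbol). The members as a whole stood below all genes in every list, from 1.43% against 8.60% in the reproducible set to 40.0% against 49.3% for any of the 4 lists, where the flp genes had 51.6%.

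The peak upstream of ins-39 was the only peak of a member promoter among the 1000 strongest of the pooled list. The gene encodes an insulin-like peptide (WBGene00017668) and lies on the minus strand at X:1343758-1344421 (ce11). The reproducible peak spanned X:1344877-1345256, with its summit at -646 bp, where negative distances lie upstream of the 5' end. It had a signal of 323 and rank 61 of 2285. In the replicate lists the signal was 188 (rank 57) in replicate 1 and 132 (rank 83) in replicate 2, with the summit at -641 bp in both. Both replicates thus placed it among their highest peaks and at the same base. The summit was intergenic and no start of another gene of any class was nearer. The nearest other protein-coding start, at -7892 bp, was that of ttr-37, a transthyretin-like gene on the far side of ins-39. The upstream neighbour of ins-39 ended 13350 bp away. The replicate 2 list had 2 further, low peaks upstream, at -1630 bp (signal 11.7) and -2227 bp (12.1), which the other lists did not hold there. The bases around this summit are given because no other member promoter held a peak of this rank. They are 75 on each side, read on the strand of ins-39, with the central 21 in capitals (X:1344992-1345142, minus strand).

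ins-39: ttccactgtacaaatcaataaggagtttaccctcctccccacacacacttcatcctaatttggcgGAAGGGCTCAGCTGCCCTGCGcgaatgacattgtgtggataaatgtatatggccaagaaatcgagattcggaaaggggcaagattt

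This stretch was 46.4% G or C, against a median of 45.0% over stretches of the same length at all reproducible summits. It held none of 3 short words searched on both strands, which do not overlap each other: AGGTCA, the half-site of many nuclear receptors, GAGAGA, a GA repeat, and GGTTCGA, the core of the B box inside tRNA genes. Over all 2285 reproducible summits, 4.07% of such stretches held AGGTCA, 38.3% GAGAGA and 5.12% GGTTCGA. A missing word says only that these letters are not in this stretch.

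The nlp-4 peak was weak by comparison and lay between a pair of divergent genes. The gene encodes a neuropeptide-like protein (WBGene00003742), on the minus strand at I:10517321-10518055. Its reproducible peak spanned I:10517946-10518325 with the summit at -81 bp, a signal of 69.4 and rank 1803. The signal was 38.3 (rank 1898) in replicate 1 and 25.6 (rank 2720) in replicate 2, so in replicate 2 it fell outside its 2285 strongest peaks. The summits of the replicates were 14 bp apart. The same summit lay at -243 bp from exos-3, a subunit gene of the RNA exosome that is read the other way, and inside its window. Which of the 2 genes the peak belongs to cannot be told. A stronger peak (signal 284, rank 99) lay past the other end of nlp-4 at 862 bp, where the start of the snoRNA gene F59C6.15 was nearest at -43 bp.

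**Figure D2:**
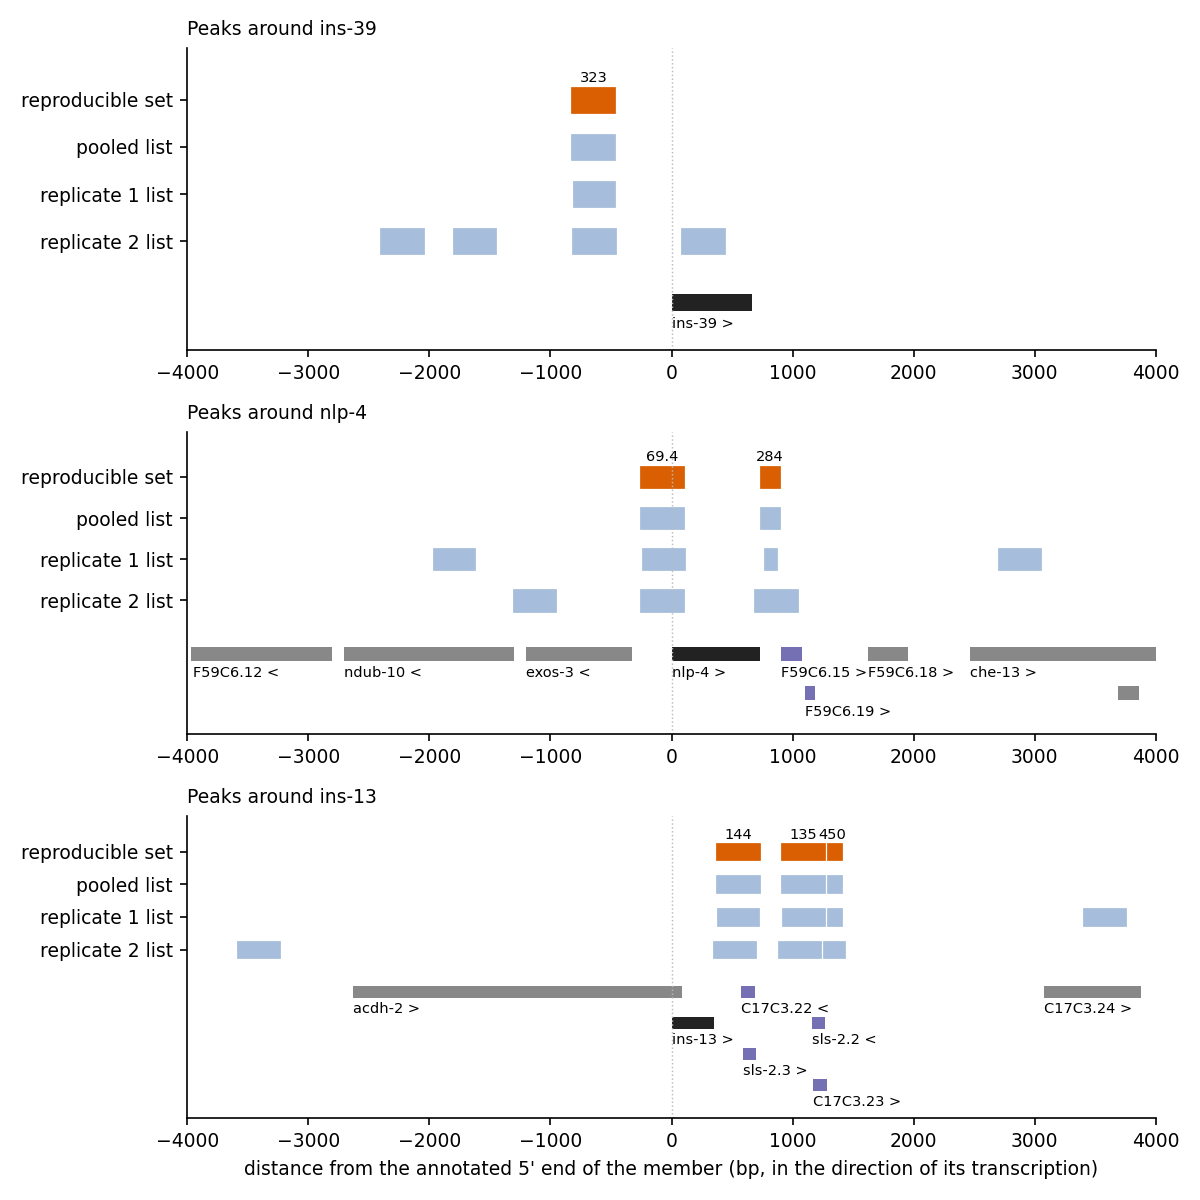
Peaks of the 4 lists within 4000 bp of the annotated 5' ends of ins-39, nlp-4 and ins-13 (horizontal axis, bp, in the direction of transcription of the member; orange bars are reproducible peaks with their signal, blue bars the relaxed lists; black, grey and purple bars are the member, other protein-coding genes and non-coding genes, with > or < for the same or the opposite strand). The ins-39 peak (signal 323) has no other gene near it, the nlp-4 peak (69.4) lies between nlp-4 and exos-3, and the 3 peaks near ins-13 lie past its other end, at non-coding genes.

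Over the pooled list, which holds strong and weak peaks, the gap to other genes was smaller in proportion. In it 18 of 140 members had a promoter summit (12.9%, 7.80 to 19.6%), against 26.5% of all genes. Genes with a pooled but no reproducible summit were 16 of 140 members (11.4%, 6.68 to 17.9%), against 17.9% of all genes, so for weak peaks alone the interval reached about the share of all genes. Among genes whose upstream neighbour was at least 5000 bp away, a class added after the data were seen, the pooled share was 9 of 43 members (20.9%, 10.04 to 36.04%), against 21.6% of such genes. In that class the members' share was close to that of the other genes. The shares of the families in the whole pooled list were close, with 4 of 31 flp genes (12.9%, 3.63 to 29.8%), 9 of 71 nlp genes (12.7%, 5.96 to 22.7%) and 5 of 38 ins genes (13.2%, 4.41 to 28.1%). The best pooled signal had a median of 31.9 over the 18 members, against 38.9 over the 5294 genes with one, and 11.1% of these members against 32.4% of these genes had one among the 2285 strongest. The counts behind these last shares, 2 members and 1717 genes, equal those of the reproducible set, so they add no separate difference. The weakest of those 2285 that fell at a member was that of nlp-4 (rank 1803), and the next member down the list was flp-23 (rank 2951, signal 48.9). Between the families, these differences were smaller than the counting intervals.

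The 4 flp genes with a pooled summit were flp-23, flp-15, flp-3 and flp-20. The flp-23 peak was the highest of them (signal 48.9), with its summit at -387 bp. It was present in both replicates, with signal 21.9 at -380 bp in replicate 1 and 24.3 at -390 bp in replicate 2. A tRNA gene on the other strand started only 72 bp from this summit, nearer than flp-23. The flp-15 peak (34.4, -31 bp) was also in both replicates, as overlapping peaks with summits 79 bp apart. It had signal 13.5 at 44 bp, in a coding exon of flp-15, in replicate 1 and 23.03 at -35 bp in replicate 2. The flp-3 summit (30.5, -509 bp) lay in an intron of W07E11.1 and was in the list of replicate 2 only. The flp-20 summit (25.9, -449 bp) was in the list of replicate 1 only. The peptides of flp-20 are known from touch receptor neurons. Of the 31 flp genes, 7 had a summit in the replicate 1 list (22.6%), against 34.3% of all genes, and 11 in the replicate 2 list (35.5%), against 36.9% of all genes. The flp-15 and flp-23 genes were the 2 with one in both (6.45%), against 22.1% of all genes. For replicate 2 the family thus stood near the share of all genes. The bases around the best summits of flp-23, nlp-14, flp-15 and ins-37 are shown because these were among the highest pooled peaks of the 3 families after ins-39 and nlp-4. They reach 75 bases to each side or stop before the annotated 5' end, and are read on the strand of the member. Capitals mark the bases inside a tRNA gene for flp-23 and inside an snRNA gene for ins-37, and the central 21 bases for nlp-14 and flp-15. The stretches are III:8650305-8650455 (plus strand) for flp-23, X:8919430-8919580 (minus) for nlp-14, III:13667840-13667945 (minus) for flp-15 and II:13836108-13836226 (minus) for ins-37.

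flp-23: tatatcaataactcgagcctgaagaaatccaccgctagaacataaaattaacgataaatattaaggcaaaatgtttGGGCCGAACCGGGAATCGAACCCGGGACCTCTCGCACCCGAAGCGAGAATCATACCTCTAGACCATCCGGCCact

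nlp-14: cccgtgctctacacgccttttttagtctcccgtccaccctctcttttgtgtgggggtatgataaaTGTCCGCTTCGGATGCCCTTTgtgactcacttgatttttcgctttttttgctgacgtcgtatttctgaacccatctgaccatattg

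flp-15: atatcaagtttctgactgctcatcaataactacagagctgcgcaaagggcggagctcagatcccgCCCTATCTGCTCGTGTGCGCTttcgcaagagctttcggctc

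ins-37: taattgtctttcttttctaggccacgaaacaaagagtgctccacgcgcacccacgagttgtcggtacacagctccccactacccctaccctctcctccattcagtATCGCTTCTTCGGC

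In the flp-23 stretch, 72 of the 151 bases belong to the tRNA gene, and this was the only one of the 4 to hold GGTTCGA. None of them held AGGTCA or GAGAGA. Over the 19 distinct pooled peaks in member windows, AGGTCA was in 0, GAGAGA in 2 (10.5%) and GGTTCGA in 1 (5.26%), against 4.51%, 19.9% and 2.36% of all 13500 pooled peaks. In the whole promoter windows, AGGTCA was present at 47 of 140 members (33.6%), against 27.6% of all genes, and GAGAGA at 61 members (43.6%), against 52.0% of all genes. By family, GAGAGA was in 20 of 31 flp windows (64.5%), 27 of 71 nlp windows (38.03%) and 14 of 38 ins windows (36.8%). These are descriptions of letters and not of sites.

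Among the 9 nlp genes with a pooled summit, nlp-4 was followed by nlp-14, nlp-8, nlp-59 and the pair of nlp-31 and nlp-34. The nlp-14 gene, which encodes orcokinin-like peptides known to act in sleep, had pooled peaks of 40.9 at -82 bp and 32.3 at -294 bp. Its best signal was 29.1 at -18 bp in replicate 1 and 18.1 at -316 bp in replicate 2. A second, lower summit of replicate 1 (13.7, -282 bp) lay 34 bp from that of replicate 2. Replicate 2 listed no other summit in the window, so the place nearest the start was in the replicate 1 list only. The nlp-8 summit (34.5, -840 bp), at another gene known for a role in sleep, was alike in both replicates, with 15.9 at -847 bp and 15.8 at -804 bp. The nlp-59 summit (33.4, -803 bp) had signal 31.0 and rank 1920 in replicate 2 and no summit in the list of replicate 1. The reverse held for nlp-31 and nlp-34, whose windows share 1 pooled peak (30.2) at -23 bp of nlp-31 and -898 bp of nlp-34. They had signal 26.8 in replicate 1 and nothing in the list of replicate 2. These genes belong to a group of antimicrobial peptide genes of the epidermis (nlp-27 to nlp-31 and nlp-34, V:3978825-3989770), chosen here after its values were seen, in which 2 of 6 genes had a pooled summit. Both of these counts come from that 1 shared peak, and the share of all genes is 26.5%. The remaining nlp genes with one were nlp-32 (26.3, in its own coding exon), nlp-2 (25.2, in an intron of T01B6.1) and nlp-13 (24.4).

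The 5 ins genes with a pooled summit were ins-39, ins-37, ins-35, ins-23 and ins-4. The ins-37 peak (36.1, -44 bp) lay at -30 bp from the snRNA gene F08G2.9, which starts nearer to it than ins-37. A second pooled summit of ins-37 (25.7) lay at 210 bp, in its annotated 5' UTR. It was at -19 bp from the ncRNA gene R05D7.8, which also starts nearer to it than ins-37. The best signals of ins-37 were 17.4 at -57 bp in replicate 1 and 17.0 at -71 bp in replicate 2. The ins-35 summit (34.8, -965 bp) had 15.9 in replicate 1 and 20.2 in replicate 2. The ins-4 gene, an insulin-like peptide gene known to hold back the dauer stage, had a low summit (25.2, -189 bp) with 11.7 in replicate 1 and 12.2 in replicate 2. The ins-23 summit (27.3) lay in its coding exon at 246 bp, just inside the window, and was in neither replicate list. Apart from ins-39, the ins-37 (rank 4817) and ins-35 (rank 5208) peaks stood above the median signal of the 13500 pooled peaks, 30.9, while ins-23 and ins-4 stood below it.

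The replicates seldom met at the same peptide gene. Replicate 1 had a summit in the window of 33 members (23.6%, 16.8 to 31.5%), against 34.3% of all genes, and replicate 2 in 35 (25%, 18.1 to 33.0%), against 36.9% of all genes. Both had one at 13 members (9.29%, 5.04 to 15.4%), against 22.1% of all genes. Of the 55 members with a summit in either list, 23.6% had it in both, against 44.9% of the genes with one in either. Where both had one, the closest pair of summits lay a median of 43 bp apart over the 13 members, against 44 bp over 4405 genes. The 13 were flp-15, flp-23, nlp-4, nlp-8, nlp-14, nlp-32, nlp-60, nlp-80, ins-4, ins-12, ins-35, ins-37 and ins-39. At nlp-60, nlp-80 and ins-12 the replicate summits were 587, 455 and 559 bp apart and the pooled list had none.

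**Figure D3:**
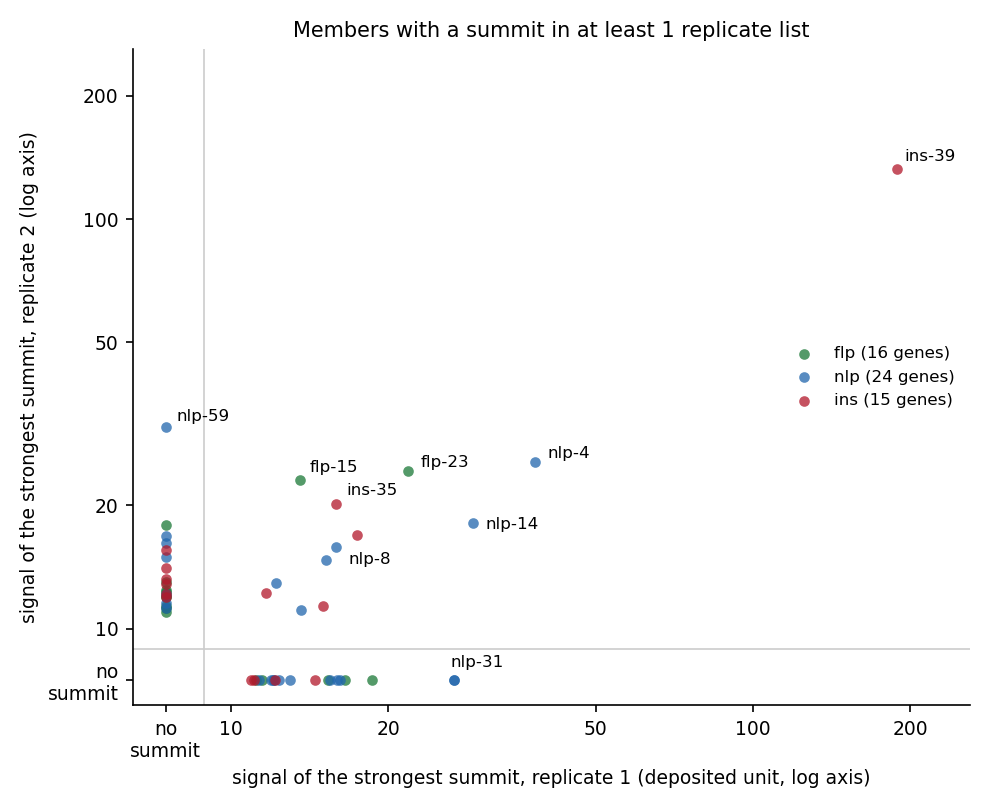
Signal of the strongest summit in the promoter window in replicate 1 (horizontal axis, log scale) and replicate 2 (vertical axis, log scale) for the 55 members with a summit in at least 1 replicate list (each point is a gene, coloured by family; points on the margins have no summit in that list). The ins-39 point (188 and 132) stands far from the rest, and 20 members have a summit in replicate 1 only and 22 in replicate 2 only.

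Most peptide genes had no summit of any list, 84 of 140 (60.0%, 51.4 to 68.2%), against 50.7% of all genes. Put the other way, 16 of 31 flp genes (51.6%, 33.1 to 69.8%), 24 of 71 nlp genes (33.8%, 22.997 to 46.01%) and 16 of 38 ins genes (42.1%, 26.3 to 59.2%) had at least 1, against 49.3% of all genes. The flp family was thus at about the share of all genes, and the interval of the nlp family lay below it. The genes with none were 15 flp, 47 nlp and 22 ins genes. They included flp-1, a peptide gene needed for normal locomotion, and flp-2, flp-4, flp-8 and flp-9. Among the nlp genes they included nlp-1, nlp-3, nlp-5, nlp-9 and nlp-12, whose peptides resemble cholecystokinin. Among the ins genes they included ins-2, ins-3, ins-5, ins-8 and ins-7, an agonist of DAF-2. At the depth of these lists, which is unknown, a missing summit says that none was listed.

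Reproducible summits were rare within 500 bp upstream of peptide genes, the one of the 8 intervals read in which the highest share of all genes had one. In that stretch 1 of 140 members (0.714%, 0.0181 to 3.92%) had one, against 6.58% of all genes. From -1000 to -501 bp it was again 1 member, against 1.66% of all genes, and from -2000 to -1001 bp it was 2 members (1.43%), against 2.96%. From 500 to 999 bp downstream the order turned, with 2 members (1.43%, 0.173 to 5.07%), ins-13 and nlp-4, against 0.541% of all genes. The pooled list gave 9 members (6.43%, 2.98 to 11.9%) within 500 bp upstream, against 17.1% of all genes. Where the upstream neighbour was at least 5000 bp away, it gave 5 of 43 members there (11.6%, 3.89 to 25.1%), against 12.8% of such genes, and from -1000 to -501 bp it gave 4 of 43 (9.30%, 2.59 to 22.1%), against 7.76%. So within 1000 bp upstream the pooled gap was not seen among these genes. In the 4 intervals farther upstream their share was lower (4.65 to 9.30%, against 13.3 to 14.3% of such genes). The counting intervals there still included the share of such genes. Over all members, the pooled list gave 19 (13.6%) from -2000 to -1001 bp, against 13.6% of all genes, and 14 of these were nlp genes. Beyond -2000 bp the members stood lower again, as with 9 (6.43%, 2.98 to 11.9%) from -4000 to -3001 bp, against 12.7%. From 500 to 999 bp downstream there were 8 members (5.71%), against 4.94%. The distance to the nearest reproducible summit on either side had a median of 22866 bp over the members, against 17494 bp over all genes. It was 27035 bp for flp, 21440 bp for nlp and 31092.5 bp for ins genes. Within 5000 bp there was one for 15 members (10.7%), against 22.1% of all genes.

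**Figure D4:**
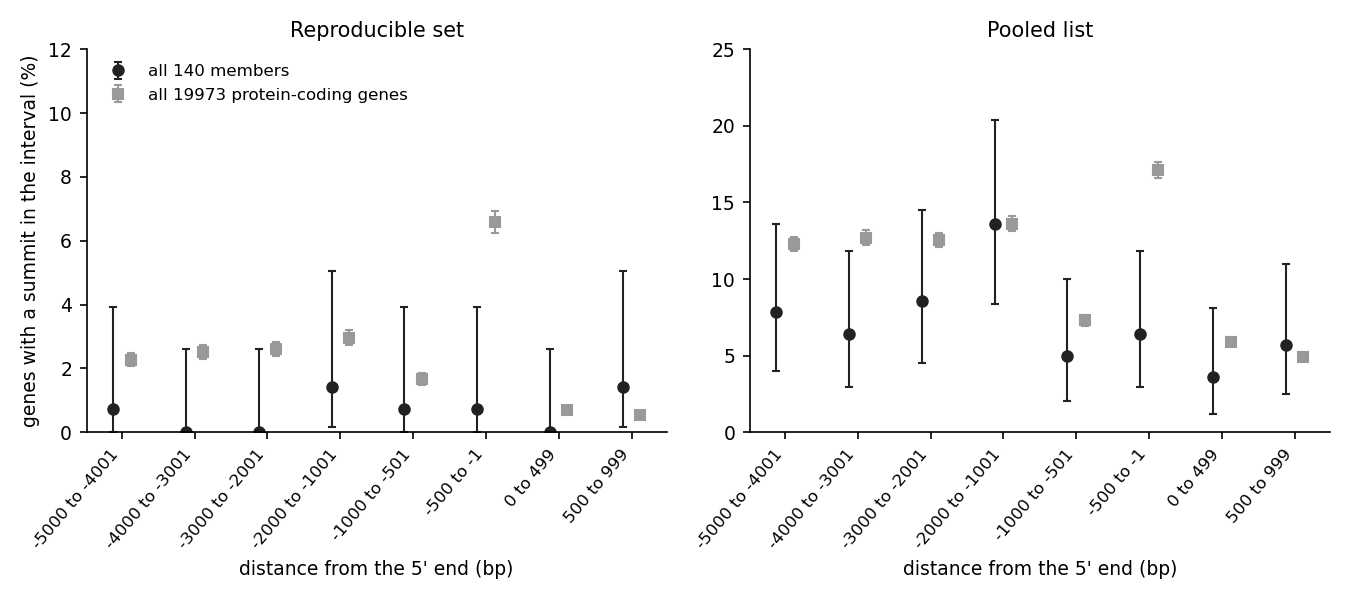
Share of genes (%, vertical axis) with a summit of the reproducible set (left) or of the pooled list (right) in intervals of distance from the 5' end (bp, horizontal axis; the 4 intervals farthest upstream are 1000 bp wide and the others 500 bp), for all 140 members and all 19973 protein-coding genes (bars are exact 95% intervals). Within 500 bp upstream the members had 0.714% against 6.58% in the reproducible set and 6.43% against 17.1% in the pooled list.

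**Figure D5:**
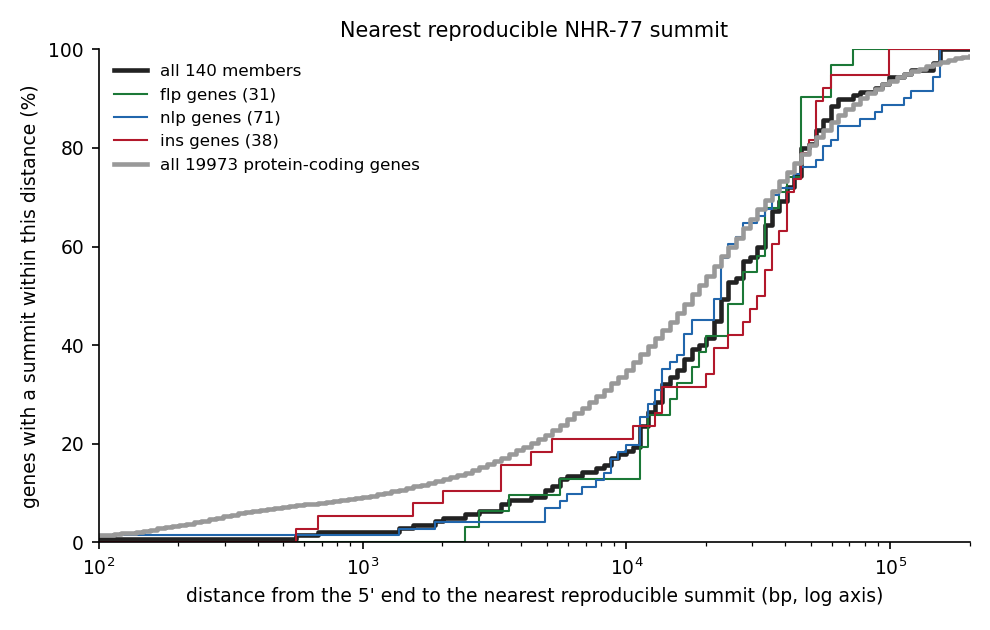
Share of genes (%, vertical axis) with a reproducible summit within a given distance of the 5' end (bp, horizontal axis, log scale), for all 140 members, each family and all 19973 protein-coding genes. The line of the members runs below that of all genes at distances up to its median of 22866 bp.

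Most of the reproducible peaks near peptide genes lay nearer to the start of another gene. No matching count for peaks around other genes is given here, so this is not shown to be particular to peptide genes. Within 5000 bp of a member's 5' end there were 18 distinct reproducible peaks, around 15 members. A member had the nearest start of any gene class, piRNA genes aside, in 2 of the 18, those at ins-39 and nlp-4. A non-coding gene was nearest in 8 (44.4%, 21.5 to 69.2%), against 36.2% of all 2285 peaks, a share inside that interval. Another protein-coding gene was nearest in the remaining 8. The 8 non-coding genes were 2 tRNA, 2 snRNA, 1 snoRNA and 3 other ncRNA genes. Counting protein-coding starts only, a member was nearest in 6 of the 18 peaks.

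The ins-13 gene had the strongest of these peaks but none in its window. It lies on the minus strand at II:5544512-5544864 with its start inside acdh-2, and 3 reproducible peaks followed its other end. Their summits were at 548 bp (signal 144), 1088 bp (135) and 1292 bp (450, rank 27). The first lay at -43 bp from sls-2.3 and the last at -26 bp from sls-2.2, genes for the SL2 spliced leader RNA, and the middle one at -78 bp from the ncRNA gene C17C3.23. Counting protein-coding genes only, all 3 would have gone to ins-13. At nlp-76 a peak of signal 115.3 lay at -1350 bp, outside the main window, in an intron of nhr-17, and the nearest start was that of a tRNA gene, at 25 bp. At nlp-71 a peak of 99.0 lay at -1772 bp and at -124 bp from exos-2, a further subunit gene of the RNA exosome. These 2 members were the only ones to gain a reproducible summit when the window was widened to 2000 bp upstream and 500 bp downstream. The bases around the ins-13 and nlp-76 summits are shown because a rule of nearest protein-coding start would give them to a peptide gene. They reach 75 bases to each side on the strand of the member, with the bases inside the snRNA gene sls-2.2 (ins-13, II:5543497-5543647, minus) or inside the tRNA gene (nlp-76, X:12665178-12665328, minus) in capitals.

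ins-13: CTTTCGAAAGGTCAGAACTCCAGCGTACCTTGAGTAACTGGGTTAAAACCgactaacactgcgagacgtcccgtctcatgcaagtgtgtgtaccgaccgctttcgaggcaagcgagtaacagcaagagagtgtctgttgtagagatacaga

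nlp-76: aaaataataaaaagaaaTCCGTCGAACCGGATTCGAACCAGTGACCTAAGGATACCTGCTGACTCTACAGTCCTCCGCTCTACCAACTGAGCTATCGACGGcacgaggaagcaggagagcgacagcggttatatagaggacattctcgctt

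Of the 151 bases, 50 belong to sls-2.2 in the first and 84 to the tRNA gene in the second. Both held AGGTCA and the second also GGTTCGA, in each case within the bases of the non-coding gene. The other strong neighbours were of the same mixed kind. A peak of 375 at 1900 bp of ins-17 lay at -15 bp from the ncRNA gene F56F3.11 and at -246 bp from rps-1, a ribosomal protein gene. One of 213 at 1519 bp of ins-37 lay at -65 bp from the ncRNA gene F08G2.13. One of 110 near ins-14 and ins-15 lay at -101 bp from exos-8. One of 96.1 at 2436 bp of flp-1 lay at -272 bp from rpb-12, an RNA polymerase subunit gene.

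Inside the promoter windows the member itself was mostly the nearest gene. Of the 18 members with a pooled summit, 17 had the nearest protein-coding start, and at nlp-34 it was that of nlp-31. Under this rule 12.1% of members had a pooled summit, against 21.5% of all genes. Without it the shares were 12.9% and 26.5%, so the own start was mostly nearest over all genes too. With genes of all classes, piRNA genes aside, it was 15 of 18, since a tRNA gene stood nearer at flp-23 and an snRNA gene at ins-37. Of the 19 distinct pooled peaks, 14 were intergenic, 2 lay in introns of other genes, 2 in coding exons and 1 in a 5' UTR. Only protein-coding genes were used for these places, so intergenic summits can lie at non-coding genes. For these places, and for nearness to genes of all classes, no share over all genes is given here. Both reproducible summits were nearest to their member (1.43% of members, against 6.21% of all genes under the same rule).

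Peptide genes differed from other genes in their surroundings, and reproducible summits at all genes varied with the same features. Upstream of the members the next protein-coding gene was a median of 2523 bp away, against 937 bp for all genes. It was 5186 bp for flp, 2294 bp for nlp and 1928.5 bp for ins genes. A second protein-coding start fell in the window of 12 members (8.57%), against 21.3% of all genes, and in 48.6% of all genes with a reproducible summit. Among genes with such a second start, 19.6% had a reproducible summit, and among those without one 5.61%. Among genes without a second start it was 1 of 128 members (0.781%, 0.0198 to 4.28%) against 5.61%. In the pooled list it was 15 of 128 members (11.7%, 6.71 to 18.6%) against 22.4%. Likewise, 1 of 105 members with a neighbour at least 1000 bp upstream had a reproducible summit (0.952%), against 5.95% of such genes. The G and C content of the windows was close, with a median of 35.4% in members against 35.01% in all genes. Among genes with a content above 37.4%, 1 of 45 members (2.22%, 0.0562 to 11.8%) had a reproducible summit, against 14.9%. The comparison changed among genes with at least 5000 bp to the upstream neighbour, a class added after the data were seen. There 1 of 43 members had a reproducible summit (2.33%, 0.0589 to 12.3%), against 4.32% of such genes, and 9 of 43 a pooled one (20.9%), against 21.6%. Both replicate lists had one at 6 of 43 (13.95%), against 17.4%. Each of these 3 intervals included the share of such genes. In the 4 comparisons before them the interval of the members lay below the share of such genes, which is a description and not a test. It included that share in the 3 lower classes of G and C content (0 of 25, 1 of 38 and 0 of 32 members), among the 35 members with a nearer neighbour (1 member, 2.86%, against 11.1%) and among the 12 with a second start (1 member, 8.33%, against 19.6%).

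The 3 families are spread unequally over all 6 chromosomes, and weighting by chromosome moved the background little. Of 31 flp genes 13 are on X, while 15 of 38 ins genes are on II and 10 on I, and 19 of 71 nlp genes are on X and 18 on V. If the share of all genes on each chromosome is weighted by where the members lie, it is 8.64%, against the 1.43% measured in members. The same weighting gives 8.50% for flp, 8.15% for nlp and 9.66% for ins genes. On X 1 of 34 members had a reproducible summit (2.94%, 0.0744 to 15.3%), against 7.29% of all X genes, and on the autosomes 1 of 106 (0.943%, 0.0239 to 5.14%), against 8.80%. In the pooled list, members on V came closest to other genes with 5 of 23 (21.7%, 7.46 to 43.7%), against 21.8%, and 4 of these 5 were nlp genes. On IV, 0 of 19 members had a pooled summit, which allows up to 17.6%, against 24.96% of all genes.

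Other genes of peptide signalling were read from lists taken from general knowledge, again with earlier results known. Of the genes for peptide receptors, 0 had a reproducible summit (upper bound 3.36%) and 13 a pooled one (12.04%), against 8.60% and 26.5% of all genes. Of 15 other secreted signals, 0 had a reproducible summit (upper bound 21.8%), against 8.60% of all genes. A pooled one was at 2 of them (13.3%, 1.66 to 40.5%), against 26.5% of all genes, a share inside that interval. Of 24 genes for processing and release of peptides, 3 had a reproducible summit (12.5%, 2.66 to 32.4%) and 11 a pooled one (45.8%), against 8.60% and 26.5% of all genes. They were rund-1 (signal 78.3, -359 bp), unc-108 (72.9, 8 bp), which encodes the small GTPase RAB-2, and ric-19 (70.99, -136 bp), all known in dense-core vesicle maturation. The ric-19 summit also lay in the window of pmlr-1. Among the strongest peaks of each replicate, unc-108 had a summit in replicate 1 only, and rund-1 and ric-19 in replicate 2 only. Without replicate 1 the count was 2 of 24 (8.33%), against 8.19% of all genes. Without replicate 2 it was also 2 (8.33%), against 8.57%, so neither replicate alone set this list clearly apart. It stayed 3 with the narrow and wide windows given below and with nearest starts only. Of 20 genes for insulin signalling, including daf-2, which is also in the receptor list, 5 had a reproducible summit (25%, 8.66 to 49.1%). The highest were akt-2, a kinase of the pathway (141, -686 bp), ftt-2, a 14-3-3 protein (99.8, -570 bp), and daf-16 (80.2, -437 bp). This count depended on the rule. It was 2 (10%) with a narrow window of 500 bp upstream to 100 bp downstream, against 6.87% of all genes, and 8 (40%) with the wide one, against 11.4%. It was 3 (15%) when each peak was given to its nearest start, against 6.21%, and 3 without replicate 1, against 8.19%. Without replicate 2 it was 4 (20%), against 8.57%. For reproducible summits, the interval of the receptor genes lay below the share of all genes. That of the processing and release genes included it, and that of the insulin signalling genes began just above it. In the pooled list 8 of 20 insulin signalling genes had a summit (40%, 19.1 to 63.9%), against 26.5% of all genes.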

How the data were processed

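Peak lists from ChIP-seq of eGFP-NHR-77 in L1 larvae (2 replicates, 1 group) were read as deposited on ce11. Per the deposited notes, the replicate and pooled lists are relaxed input for the irreproducible discovery rate and hold background as well as peaks, and peaks were called against a control, which was not analysed here. The aligner was not given in the sources used here, nor were the peak caller and the threshold. The deposited signal of each peak is the authors' value, taken as its height over the control. This reading is uncertain, so signal only ranks peaks within 1 list. The deposited −log10 q value broke ties. Summit positions were set against 5' ends of protein-coding genes on 6 nuclear chromosomes (Ensembl WBcel235, release 115), and bases were read from the RefSeq genome of the same build. The ce10 lists were not used.

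Members, lists, words and alternatives were chosen with earlier results of these data known. Named were members with a reproducible summit in the main or wide window, the highest members of each family in the pooled list or in both replicate lists, up to 5 members per family without a summit, their nearest neighbours, and the 3 highest genes of each wider list. Shares have exact (Clopper-Pearson) 95% intervals. Neighbouring genes can share a peak, so genes are not independent, and no p-value is given. Window assignment was tested on simulated summits. Alternatives were narrow and wide windows, nearest start only, peak overlap, every annotated transcript start, the stronger peaks of each list (1143 reproducible, 6750 pooled), each replicate alone and other backgrounds, of which that of genes with 5000 bp to the upstream neighbour was added after the data were seen. Tools were Python 3.11.15, pandas 2.3.3, numpy 2.4.6, SciPy 1.17.1 and matplotlib 3.10.9.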

Additional observations from a re-analysis of the deposited data

How the results depend on the processing

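The members' share was below that of all genes under each of the 14 settings tried for the reproducible set (0.714 to 2.86%, against 4.32 to 11.4%), the 11 for the pooled list (6.43 to 27.9%, against 17.6 to 36.6%) and the 10 for both replicate lists (5 to 25%, against 14.4 to 34.3%), but by little where the upstream neighbour was at least 5000 bp away. That background, added after the data were seen, leaves 43 members, of which 1 had a reproducible summit (2.33%, against 4.32%), 9 a pooled one (20.9%, against 21.6%) and 6 one in both replicate lists (13.95%, against 17.4%). The counts themselves moved with the window and the number of peaks. With the narrow window, 1 member and 0 ins genes had a reproducible summit and 1 member was nearest to one. The pooled list then gave 9 members, 4 nlp and 2 ins genes, and both replicate lists gave 7 members. With the wide window, 4 members and 3 nlp genes had a reproducible summit, the pooled list gave 39 members, 24 nlp and 9 ins genes, and both replicate lists gave 35 members. With the stronger peaks alone (1143 reproducible and 6750 pooled), 1 member and 0 nlp genes had a reproducible summit and 1 member was nearest to one. The pooled list then gave 9 members, made up of 2 flp, 4 nlp and 3 ins genes, and both replicate lists gave 8. Of the 105 members with 1000 bp or more to their upstream neighbour, 1 had a reproducible summit, fewer because fewer genes were counted. Without replicate 1 or replicate 2, the strongest peaks of the remaining one gave 2 members each. In all, 29 alternative values differed by more than 1.5 times from the main count and 85 did not. No paired analysis was possible because there is 1 group. Unknown depth limits what a missing weak peak can show.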
